A study of Mus musculus with 2 samples.

Results

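The 46 genes described here are members of the nuclear receptor superfamily of the mouse, taken from a list of gene symbols and matched to the Ensembl gene identifiers of the deposited tables. All 46 were found among the 43346 mouse genes listed, of which 21461 are nuclear protein coding genes. The libraries were made from total RNA of hematopoietic stem cells of male C57BL/6J mice aged 5 to 6 weeks, with 100 cells in each of 2 libraries and no treatment or second group. Both libraries are labelled as biological replicates with biosample identifiers of their own and 1 shared donor identifier. No label says if these cells were drawn from different mice, so differences between the libraries may be partly technical. With 1 group of 2 libraries no test between groups is possible, and a two-sided sign-flip test on 2 values cannot give a p below 0.5. Each value is therefore printed for both libraries, replicate 1 first.

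Nuclear receptors are transcription factors that bind DNA through a pair of zinc fingers and, in most members, bind a small fat-soluble ligand through a second domain. Retinoic acid, thyroid hormone, vitamin D, oxysterol and fatty acid receptors share the retinoid X receptors as partners, whereas steroid receptors pair with themselves and wait for hormone in a complex with heat shock proteins. Other members have no known natural ligand, and the Nr4a genes among them are switched on within minutes by many stimuli. In blood stem cells, retinoic acid signalling and the Nr4a genes have been tied to the resting state of the cells.

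The libraries held 48313341 and 28947093 expected counts, of which 19528380 and 10411450 lay on nuclear protein coding genes, a 1.88-fold difference in usable depth. Levels are given in TPM, a relative abundance of transcripts that corrects for transcript length and library size, and detection required a TPM of 1 or more together with 10 or more expected counts. Of 8 stem cell markers (Hlf, Kit, Meis1 and Ly6a the highest) 7 were detected in both libraries, with summed levels of 496 and 353 TPM. The 9 erythroid markers (Ermap, Hbb-bt, Tfrc and Klf1 the highest) were all detected in both libraries, at 543 and 593 TPM summed. The 10 mature neutrophil and monocyte markers (Ngp, S100a9, S100a8 and Lyz2 the highest) summed to 5.11 TPM in replicate 1, with 5 of 10 at 0, and to 343 TPM in replicate 2, with 2 of 10 at 0. The 9 B cell markers (Cd79a, Blnk, Cd79b and Pax5 the highest) summed to 12.0 and 32.2 TPM, with 5 and 0 of 9 at 0. Sums for further marker lists were 58.4 and 67.0 TPM for T and NK cells (Nkg7, Ncr1, Lck and Klrb1c the highest) and 38.8 and 12.0 TPM for mast cells, basophils and eosinophils (Prg2, Cpa3, Hdc and Mcpt8). Endothelial genes summed to 39.0 and 26.1 TPM (Pecam1, Emcn, Plvap and Flt4), macrophage genes to 6.63 and 9.72 TPM (Cd68, Vcam1, Cd163 and Spic), and stromal and bone genes to 4.52 and 6.13 TPM (Pdgfrb, Col1a2, Sparc and Cxcl12, the last at 0 in both). Some of these sums rested largely on 1 gene in at least 1 library. Nkg7 stood at 36.2 and 55.8 TPM, Prg2 at 31.75 and 1.79 TPM, and Pecam1 at 36.0 and 20.6 TPM. In the T and NK list 4 genes were over 2-fold higher in replicate 1 and 2 in replicate 2, unlike the order of its sums. In such bulk samples, fewer cells of a type and less RNA per cell cannot be told apart.

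Of the 46 nuclear receptor genes, 19 were detected in both libraries, 2 in replicate 1 only and 2 in replicate 2 only. The share detected in both, 41.3%, stood beside 45.5% of all nuclear protein coding genes. The remaining 23 genes were below detection in both, and 16 of them had no count in either library. Together the 46 genes took 327 and 258 TPM, or 0.109% and 0.0973% of the TPM of nuclear protein coding genes. The 5 highest members (Nr1h2, Nr4a1, Rxrb, Thra and Nr2c2) held 53.6% of the members' TPM in replicate 1 and 60.8% in replicate 2. Among the 19 genes detected in both, median levels were 15.7 and 5.35 TPM, whereas the median of all nuclear protein coding genes detected in both was 14.0 and 12.5 TPM. Only 7 of the 19 exceeded 10 TPM in both libraries.

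**Figure D1:**
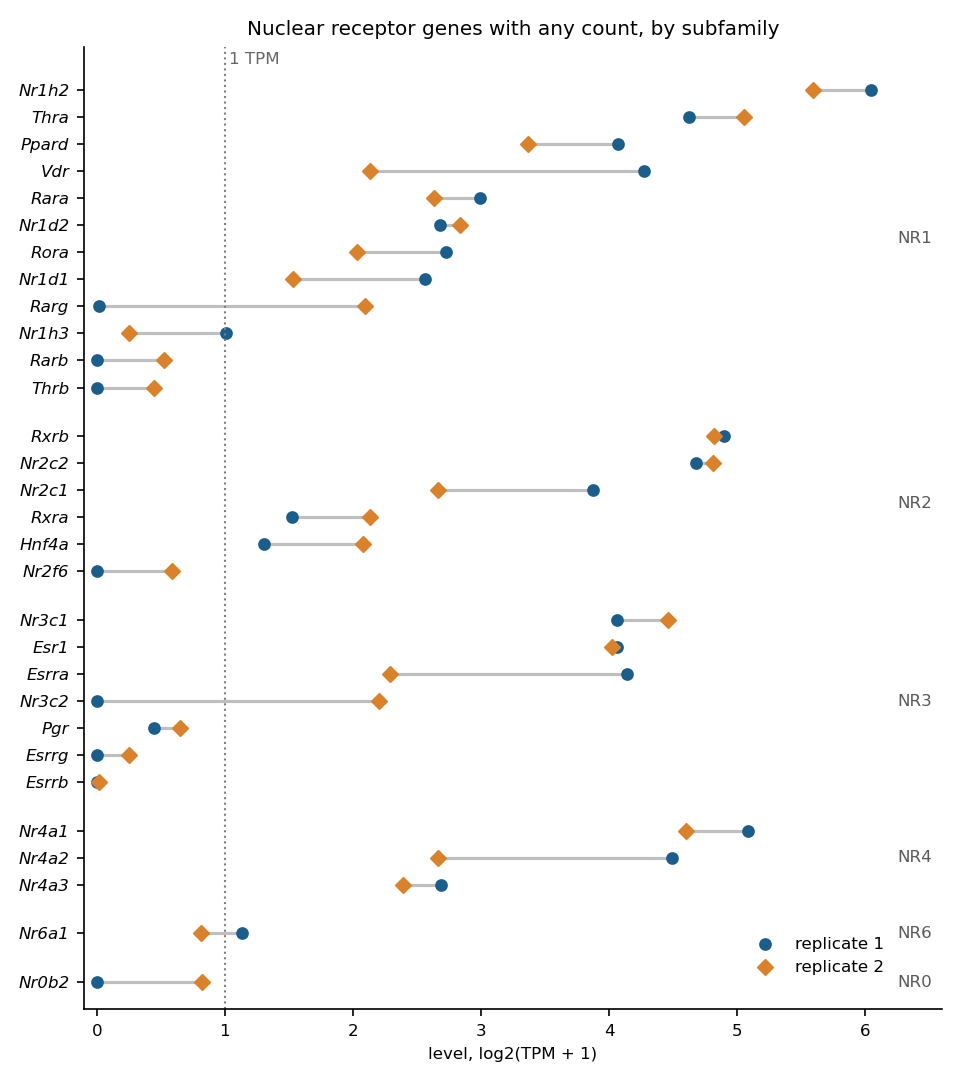
Levels of the 30 nuclear receptor genes with any count, as log2(TPM + 1) on the horizontal axis, grouped by subfamily (NR1 to NR6 and NR0) and ordered by mean level; circles are replicate 1, diamonds replicate 2, and the dotted line marks 1 TPM. Nr1h2 has the highest mean, and 7 genes lie at 0 in replicate 1 with a value above 0 in replicate 2.

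The shared partners came mainly from 1 of the 3 retinoid X receptor genes. Rxrb was at 28.9 and 27.2 TPM from 799 and 700 counts (mean 28.0 ± 1.18, SD, n = 2). The counts were also put on a CPM scale with TMM factors, which adjust for library size and composition, while CPM leaves length uncorrected. There the replicate 1 to replicate 2 ratio of Rxrb was 0.60 (95% counting interval 0.54 to 0.66), so its libraries lay close together in TPM only. Rxra was at 1.88 and 3.39 TPM from 289 and 284 counts (mean 2.64 ± 1.07, SD, n = 2), below Rxrb in both libraries. Rxrg, which is best known from muscle and brain, had no count. The level of Rxrb counts all its annotated transcripts, and protein coding transcripts made up 17.1% of it in replicate 1 and 55.5% in replicate 2, or 4.94 and 15.1 TPM. The rest lay on transcripts annotated as retained introns, of which Rxrb-208 held 33.2% and 12.5% and Rxrb-206 held 27.4% and 3.35%, with Rxrb-205 at 14.9% and 5.30% and Rxrb-210 at 0 and 17.9%. The leading coding transcripts were Rxrb-202 (410 codons, 12.6% and 31.9%) and Rxrb-201 (524 codons, 4.53% and 12.0%). On the coding transcripts alone the ratio of Rxrb to Rxra was thus smaller, since Rxra was at 1.88 and 3.21 TPM on its leading coding transcript Rxra-201.

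Among the retinoic acid receptors, Rara led. Rara was at 6.94 and 5.19 TPM from 720 and 228 counts (mean 6.07 ± 1.24, SD, n = 2). Rarg, a receptor linked in mice to the self-renewal of blood stem cells, had 1 count in replicate 1 and 102 in replicate 2, or 0.01 and 3.28 TPM. The libraries therefore gave opposite answers on whether Rarg passed detection. In TMM-scaled CPM the replicate 1 to replicate 2 ratio of Rarg was 0.0051, with a 95% counting interval of 0.00013 to 0.029. This interval covers counting error only, and the posterior mean estimates of Rarg lay closer together in ratio, at 3.44 and 10.03 TPM. Rarb, itself a classical target of retinoic acid, had 0 and 23 counts (0 and 0.44 TPM) and stayed under detection.

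Rara also differed between the libraries in the transcript that carried it. Rara-201, with 462 codons, held 79.4% of the gene in replicate 1 and was listed at 0 in replicate 2. Rara-204 and Rara-207, of the same coding length, held 51.3% and 38.0% in replicate 2 and 0 in replicate 1, and Rara-202, with 459 codons and another start, held 20.6% and 2.19%. The posterior mean estimates moved the first share to 62.2% and gave Rara-207 13.1% in replicate 1.

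Of 18 genes that supply and remove retinoids, 6 were detected in both libraries, where 45.5% of nuclear protein coding genes were. Cyp26b1 was detected in replicate 1 alone (281 and 22 counts), Fabp5 in replicate 2 alone (87 and 73 counts), and 10 in neither. Dhrs3, which turns retinal back into retinol, stood at 13.3 and 13.6 TPM, and Rdh11, a retinol dehydrogenase, at 10.3 and 9.04 TPM. Aldh1a1, which oxidises retinal to retinoic acid, was at 2.81 and 9.48 TPM, and Aldh1a7 at 1.65 and 8.60 TPM. Both of these were over 2-fold higher in replicate 2. They are near-identical copies, but their expected counts were whole numbers, so no fractional split of reads shows. These counts were 174 and 331 for Aldh1a1 and 103 and 302 for Aldh1a7. Of 13 retinoic acid target genes, 4 were detected in both, among them Dhrs3, Tshz1 (12.8 and 11.0 TPM) and Tgm2 (5.66 and 6.16 TPM). Cyp26b1, an enzyme that degrades retinoic acid, is on this list too and was its 1 gene detected in a single library.

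Among the partners with other ligands, the oxysterol receptor Nr1h2 was the highest nuclear receptor gene of all. Nr1h2, which encodes LXR beta and senses oxidised cholesterol, stood at 65.1 and 47.2 TPM from 3041 and 1111 counts (mean 56.2 ± 12.6, SD, n = 2). By its mean it lay above 95.6% of nuclear protein coding genes. Its paralog Nr1h3, LXR alpha, common in liver and macrophages, was at 1.01 and 0.19 TPM from 50 and 6 counts, and the bile acid receptor Nr1h4 had no count. Protein coding transcripts of Nr1h2 summed to 45.1 and 27.9 TPM, led in both libraries by Nr1h2-204 (446 codons) with 63.3% and 35.1%. The other transcripts with at least 10% in a library were the retained introns Nr1h2-209 (15.7% and 7.45%), Nr1h2-205 (7.01% and 17.4%) and Nr1h2-208 (8.09% and 12.3%), and Nr1h2-212 (0 and 14.7%), a coding fragment of 22 codons.

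Of 10 sterol receptor target genes, 9 were detected in both libraries and 1, Nr1h3 itself, in replicate 1 only. In this list 2 genes were over 2-fold higher in replicate 1 and none in replicate 2. Of nuclear protein coding genes detected in either library, 11.2% and 12.1% were, the background for the 2-fold counts of every list here. The 4 highest were Srebf1, a regulator of fatty acid synthesis, at 94.5 and 44.7 TPM, Fasn, fatty acid synthase, at 55.8 and 53.9 TPM, the desaturase gene Scd2 at 52.0 and 35.5 TPM, and Lpcat3, a phospholipid acyltransferase, at 22.9 and 40.3 TPM. The counts of Srebf1, 2076 and 1384, differed less than the 1.88-fold difference in depth. Its higher TPM in replicate 1 thus depends on the length correction.

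Thra, the gene of thyroid hormone receptor alpha, was at 23.6 and 32.2 TPM from 1601 and 1169 counts (mean 27.9 ± 6.05, SD, n = 2), and Thrb had 0 and 30 counts (0 and 0.36 TPM). Thra makes a hormone-binding form and a longer form that does not bind hormone, which differ at their ends. Thra-202, whose 410 codons match the length of the hormone-binding form, held 93.1% and 64.9% of the gene, from 1499 and 802 counts, and was the leading transcript of both libraries. Thra-201, with 492 codons, held 4.47% and 21.5%, from 78.9 and 292 counts. The last exon of Thra-201 overlaps Nr1d1-201 on the opposite strand by 263 bp, and no source used here gives the strand setting of the counting. The deposited estimates split no reads between Thra and Nr1d1, since the posterior SD of both counts was 0 in each library. Of 8 genes that carry or convert thyroid hormone, 4 were detected in both: the amino acid and hormone transporters Slc7a5 (42.0 and 50.6 TPM), Slc3a2 (30.6 and 24.2 TPM) and Slc16a10 (16.8 and 16.0 TPM), and the activating deiodinase Dio2 (5.01 and 3.01 TPM).

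Vdr, the vitamin D receptor, was at 18.3 and 3.39 TPM from 502 and 163 counts. Its replicate 1 level was 5.40-fold higher in TPM, but 1.62-fold higher in TMM-scaled CPM (95% counting interval 1.35 to 1.94). The TPM difference lay in 1 short transcript: Vdr-204, of 343 nucleotides and 51 codons, was given 109 counts and 84.2% of the gene in replicate 1, or 15.4 TPM, and none in replicate 2. Vdr-201, the full receptor of 422 codons, was at 2.88 and 2.04 TPM from 393 and 157 counts and so lay within 2-fold between the libraries. Vdr-202, a fragment of 75 codons, held 0 and 39.9%. Of the 7 vitamin D handling genes, none was detected in both libraries; the highest were Cyp27a1 (68 and 9 counts), Cyp2r1 (0 and 15 counts) and Cyp27b1 (0 and 4 counts), and Cyp24a1, which degrades the hormone and is a classical target of Vdr, had none.

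Of the 3 fatty acid receptors, Ppard alone had counts. Ppard was at 15.8 and 9.34 TPM from 784 and 459 counts, while Ppara and Pparg, the receptors best known from liver and fat, had none. The direction between libraries turned with the scale, since TMM-scaled CPM gave a ratio of 0.90 (95% counting interval 0.80 to 1.01). Ppard-206, a coding fragment of 252 codons, held 53.5% in replicate 1 and 0 in replicate 2, the full-length Ppard-201 (440 codons) held 29.4% and 77.3%, or 4.65 and 7.22 TPM, and the retained intron Ppard-202 held 17.1% and 14.2%. Of 14 fatty acid receptor target genes, 11 were detected in both libraries and Angptl4 in replicate 2 alone (0 and 129 counts). The highest were the mitochondrial carrier Ucp2 at 551 and 407 TPM, and the fatty acid oxidation genes Hadha at 39.6 and 50.9 TPM, Acadm with 1518 and 526 counts and Cpt1a at 30.2 and 32.4 TPM. In this list 2 genes were over 2-fold higher in replicate 1 and 1 in replicate 2. The xenobiotic receptors Nr1i2 and Nr1i3 had no count.

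Of the steroid hormone receptors, the glucocorticoid and oestrogen receptors were detected in both libraries. Nr3c1, the glucocorticoid receptor, was at 15.7 and 20.99 TPM from 2836 and 1682 counts (mean 18.3 ± 3.75, SD, n = 2). Esr1, oestrogen receptor alpha, which drives stem cell division in female mice, was at 15.7 and 15.2 TPM from 1505 and 707 counts in these male cells (mean 15.5 ± 0.36, SD, n = 2), and Esr2 had no count. Esr1 was among the members with the closest libraries, although its transcripts differed: protein coding transcripts summed to 12.2 and 4.78 TPM. Esr1-203 and Esr1-201 (599 codons each) held 43.5% and 33.4% in replicate 1 but 8.23% and 0.82% in replicate 2, where the processed transcript Esr1-208 held 25.7% and Esr1-204 (599 codons) 20.0%, against 0 and 0.72% in replicate 1. The retained intron Esr1-209 held 22.4% and 7.85%.

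All 8 transcripts listed for Nr3c1 are annotated as protein coding. Nr3c1-203 (792 codons) held 85.1% and 27.3%, Nr3c1-204, of the same coding length, 0 and 31.7%, and the shorter Nr3c1-205 and Nr3c1-208 held 0 and 16.0%, and 14.9% and 9.07%. Nr3c2, the mineralocorticoid receptor, had no count in replicate 1 and 149 counts (3.61 TPM) in replicate 2. Set against a floor of 3 counts in replicate 1, its replicate 2 value was 105-fold higher in TPM and 94.7-fold higher in TMM-scaled CPM. The 95% counting interval of its replicate 1 to replicate 2 ratio in TMM-scaled CPM was 0 to 0.013. These figures cover counting error only, and the posterior mean estimates lay closer together, at 0.44 and 4.18 TPM. Pgr, the progesterone receptor, had 78 and 61 counts but stayed under detection at 0.36 and 0.57 TPM.

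All 10 genes of the chaperone complex that holds unliganded steroid receptors were detected in both libraries, and none was over 2-fold apart. The 4 highest were Hspa8 (1809 and 1487 TPM), Hsp90ab1 (878 and 818 TPM), Hsp90aa1 (522 and 600 TPM) and the immunophilin gene Fkbp4 (89.2 and 91.3 TPM). Of 12 glucocorticoid target genes, 10 were detected in both, 3 being over 2-fold higher in replicate 1 and 2 in replicate 2, 1 of these Sgk1 with 0 and 46 counts. The highest were Zfp36, which destabilises cytokine mRNA, at 231 and 122 TPM, the phosphatase gene Dusp1 at 168 and 106 TPM, the metallothionein gene Mt1 at 119 and 99.3 TPM, and the clock gene Per1 at 59.8 and 24.2 TPM.

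The Nr4a genes were the only subfamily with every member detected in both libraries, summing to 60.0 and 32.9 TPM. These receptors act without ligand, and their promoters are known to answer to cyclic AMP through short elements with the core TGACG. To show those letters, the bases before the RefSeq start of each gene are printed here 5′ to 3′ (assembly GRCm38.p6), ending before any exon of the gene in GENCODE M21, with each TGACG or its reverse complement CGTCA in capitals. They lie at chr15:101266596-101266845 on the plus strand for Nr4a1, chr2:57124004-57124253 on the minus strand for Nr4a2 and chr4:48045055-48045152 on the plus strand for Nr4a3.
Nr4a1: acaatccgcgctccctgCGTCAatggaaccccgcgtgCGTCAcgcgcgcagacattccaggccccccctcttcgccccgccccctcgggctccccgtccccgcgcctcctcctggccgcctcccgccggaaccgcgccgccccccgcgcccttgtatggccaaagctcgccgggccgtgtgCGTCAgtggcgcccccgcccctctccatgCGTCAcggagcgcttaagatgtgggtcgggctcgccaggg
Nr4a2: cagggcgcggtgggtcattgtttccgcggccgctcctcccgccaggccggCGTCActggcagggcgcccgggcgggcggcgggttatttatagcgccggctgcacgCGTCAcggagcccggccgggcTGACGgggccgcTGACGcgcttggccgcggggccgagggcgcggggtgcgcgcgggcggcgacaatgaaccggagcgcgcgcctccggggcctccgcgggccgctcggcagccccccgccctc
Nr4a3: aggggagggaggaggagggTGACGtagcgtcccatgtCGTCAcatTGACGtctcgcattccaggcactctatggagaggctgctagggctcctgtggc
The window of 250 bases before to 50 after the start held 4 matches in each of the 3 genes, 1 of those of Nr4a3 lying past the printed stretch. Of 32851 such windows over all genes, 76 (0.231%) held at least 4, and no other member window did. The threshold of 4 equals the count of these 3 windows, so that share is a description and not a test. The full palindrome TGACGTCA was in none of the 3 windows. A match is a description of the letters, and binding was not measured here.

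Nr4a1 was at 33.0 and 23.3 TPM from 2489 and 989 counts (mean 28.1 ± 6.89, SD, n = 2), and the tables list 1 transcript for it, the coding Nr4a1-201 (601 codons). Nr4a2 was at 21.5 and 5.35 TPM from 1406 and 180 counts, a 4.02-fold difference in TPM and 4.10-fold in TMM-scaled CPM (95% counting interval 3.51 to 4.81). Nr4a3 was at 5.45 and 4.26 TPM from 135 and 84 counts. The order Nr4a1, Nr4a2, Nr4a3 was the same in both libraries, but in replicate 2 Nr4a2 and Nr4a3 lay close together.

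The tables list 6 transcripts for Nr4a2 and 4 for Nr4a3, so only these genes could divide among classes. For Nr4a2, the coding transcript Nr4a2-203 (598 codons) held 11.6% and 41.9%, or 2.49 and 2.24 TPM, so its level was nearly alike in the libraries. The rest of Nr4a2 lay on the processed transcript Nr4a2-205 (49.4% and 36.7%), on Nr4a2-206, annotated as a target of nonsense-mediated decay (39.0% and 3.70%), and on the 182-nucleotide processed transcript Nr4a2-204, given 17.8% in replicate 2 from 1 count. For Nr4a3, no TPM in replicate 1 and 1.88% in replicate 2 lay on protein coding transcripts. The processed transcript Nr4a3-204 carried 100% and 39.6% of the gene, and Nr4a3-202, of the same class, 0 and 58.5%. The detection of Nr4a3 thus rests on transcripts annotated as non-coding.

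Of 18 further immediate early genes, which like the Nr4a genes are switched on within minutes of a stimulus, 15 were detected in both libraries and Egr3 in replicate 1 only (199 and 8 counts). The 4 highest were Zfp36 and Dusp1, given above, and the AP-1 subunits Fos (151 and 98.2 TPM) and Jun (118 and 79.5 TPM). In this list 2 genes (Egr1 and Egr3) were over 2-fold higher in replicate 1 and 2 (Ier5 and Klf4) in replicate 2. The median difference of the 16 genes, replicate 1 minus replicate 2, was 0.59 on the log2(TPM + 1) scale, beside 0.086 over nuclear protein coding genes detected in either library. On that scale Nr4a1 differed by 0.49, Nr4a2 by 1.83 and Nr4a3 by 0.29.

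Among the receptors of the circadian loop, the heme-binding repressors Nr1d1 and Nr1d2 were both detected. Nr1d1 was at 4.92 and 1.89 TPM from 410 and 89 counts, 2.60-fold higher in replicate 1, and its only transcript with 10% or more, Nr1d1-201, carried 100% in each. Nr1d2 was at 5.42 and 6.16 TPM from 515 and 410 counts, with the coding Nr1d2-201 at 47.1% and 70.9% and the retained intron Nr1d2-202 at 52.9% and 29.1%. Rora, an activator that competes with them for the same DNA sites, was at 5.63 and 3.10 TPM from 1458 and 194 counts. For Rora the scales differed, since TMM-scaled CPM gave a ratio of 3.94 (95% counting interval 3.39 to 4.60) against 1.82 in TPM.

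Rora was carried in replicate 1 by the coding transcripts Rora-201 (67.6%, 523 codons) and Rora-202 (32.4%, 467 codons), which held 24.3% and 17.9% in replicate 2. There the short Rora-206, a target of nonsense-mediated decay, held 31.7% from 11.1 counts and the processed transcript Rora-203 16.5% from 4 counts. Of 14 circadian clock genes, 9 were detected in both libraries, Npas2 in replicate 1 alone (207 and 40 counts) and Nfil3 in replicate 2 alone (30 and 63 counts), with 3 over 2-fold higher in replicate 1 and 2 in replicate 2. The highest were Per1, given above, Per3 (9.09 and 12.3 TPM), Tef (12.3 and 5.36 TPM) and Cry2 (3.92 and 11.6 TPM). No source used here gives the time of day of collection.

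The testicular receptors Nr2c1 and Nr2c2, orphan receptors that take part in repressing embryonic globin genes, were both detected. Nr2c2 was at 24.6 and 27.1 TPM from 3760 and 2820 counts (mean 25.9 ± 1.73, SD, n = 2), the largest count of any member in both libraries. Its transcripts were Nr2c2-201 (596 codons, 56.9% and 70.8%), Nr2c2-202 (629 codons, 5.09% and 13.0%) and Nr2c2-203 (38.0% and 11.8%), whose annotated coding part has 4 codons. Nr2c1 was at 13.7 and 5.33 TPM from 1586 and 320 counts, 2.57-fold higher in replicate 1 in TPM and 2.60-fold in TMM-scaled CPM. Nr2c1-203 (590 codons) carried 100% and 77.8% of it, and Nr2c1-202, of the same coding length, 0 and 16.8%.

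Esrra, the oestrogen-related receptor that drives mitochondrial genes, was at 16.7 and 3.88 TPM from 359 and 98 counts. It resembled Vdr: a 4.29-fold difference in TPM stood beside 1.92-fold in TMM-scaled CPM (95% counting interval 1.53 to 2.43), and 91.2% of the replicate 1 level lay on the short processed transcript Esrra-204 (654 nucleotides), which held 4.62% in replicate 2. The coding transcript Esrra-201 (422 codons) was at 1.47 and 2.12 TPM, or 8.83% and 54.6% of the gene, and the retained intron Esrra-202 held 0 and 33.4%. On coding transcripts the order of the libraries was thus the reverse of that for the whole gene. Its relatives Esrrb (0 and 1 count) and Esrrg (0 and 18 counts) were under detection.

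Hnf4a, a regulator best known from liver and gut, was detected at a low level of 1.47 and 3.23 TPM from 200 and 248 counts. Despite the lower depth of replicate 2 its count there was higher, and the replicate 1 to replicate 2 ratio in TMM-scaled CPM was 0.42 (95% counting interval 0.35 to 0.51). Hnf4a-201 (474 codons) carried 99.96% and 99.7% of the gene by the main estimate, and 54.0% and 48.8% by the posterior mean. Nr6a1, the germ cell nuclear factor, was detected in replicate 1 only, at 1.20 and 0.76 TPM from 239 and 25 counts. Its posterior mean estimates were 1.75 and 1.78 TPM, above the TPM threshold in both libraries. The replicate 1 to replicate 2 ratio of Nr6a1 in TMM-scaled CPM was 5.02 (95% counting interval 3.32 to 7.91).

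The other genes under detection with any count were Nr2f6 (0 and 12 counts) and Nr0b2 (0 and 14 counts). The 16 genes with no count were Ppara, Pparg, Nr1h4, Nr1i2, Nr1i3 and Rorb of the NR1 subfamily, Hnf4g, Rxrg, Nr2e1, Nr2e3, Nr2f1 and Nr2f2 of NR2, Esr2 of NR3, Nr5a1 and Nr5a2 of NR5, and Nr0b1. For these genes 3 counts, the limit that a count of 0 allows, would equal 0.0187 to 0.0797 TPM in replicate 1 and 0.0331 to 0.142 TPM in replicate 2. Such limits cover counting error only, since reads of amplified libraries are not independent molecules. Many of the 16 act in liver, gonads, retina or brain.

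Differences in the presence of any count all ran in 1 direction. By the detection rule they did not, with 2 members in replicate 1 only and 2 in replicate 2 only. In replicate 2, 30 members had a count, against 23 in replicate 1, although replicate 1 was deeper. The 7 genes with counts in replicate 2 alone were Thrb, Rarb, Nr2f6, Esrrb, Esrrg, Nr3c2 and Nr0b2, or 15.2% of members, and no member had counts in replicate 1 alone. Over all nuclear protein coding genes, 10.7% had counts in replicate 2 alone and 0.596% in replicate 1 alone. The members thus lay on the same side as the whole table. The summed level of the neutrophil and monocyte markers given above also differed between the libraries in this direction, and its part in these counts was not tested.

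Coregulators, which receptors recruit to open or close chromatin, were nearly all detected. Of 13 coactivator genes, 12 passed detection in both, and the list had medians of 45.96 and 40.2 TPM. The highest were the arginine methyltransferase gene Carm1 (63.9 and 61.1 TPM), Pprc1 (58.8 and 61.9 TPM), the acetyltransferase gene Ep300 (58.7 and 55.1 TPM) and the mediator subunit Med1 (62.8 and 50.8 TPM). All 11 corepressor genes were detected in both, with a median of 35.3 and 43.4 TPM. Among the highest were Ncor1 (250 and 219 TPM), which holds unliganded receptors silent, Sin3a (137 and 49.8 TPM) and Gps2 (66.6 and 73.6 TPM). In each of the 2 lists 1 gene was over 2-fold higher in replicate 1 and none in replicate 2.

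Of the 23 members detected in either library, 16 lay within 2-fold on the log2(TPM + 1) scale. That was a smaller share than the 76.7% of nuclear protein coding genes that did. The added 1 TPM damps low genes, so the 16 include Nr1h3 and Hnf4a. Without it, Nr1h3 was 5.32-fold higher in replicate 1 and Hnf4a 2.20-fold higher in replicate 2. The 5 over 2-fold higher in replicate 1 were Vdr, Esrra, Nr4a2, Nr2c1 and Nr1d1, or 21.7% of members beside 11.2% of nuclear protein coding genes. The 2 over 2-fold higher in replicate 2 were Nr3c2 and Rarg, or 8.70% of members beside 12.1%. With 23 members, 1 library on each side and no test, these shares are descriptions. The median difference of the members was 0.32, beside 0.086 for nuclear protein coding genes. Counting intervals of the ratio in TMM-scaled CPM covered 1 for only 2 of the 23 members, Ppard and Nr4a3. These intervals cover counting error only.

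**Figure D2:**
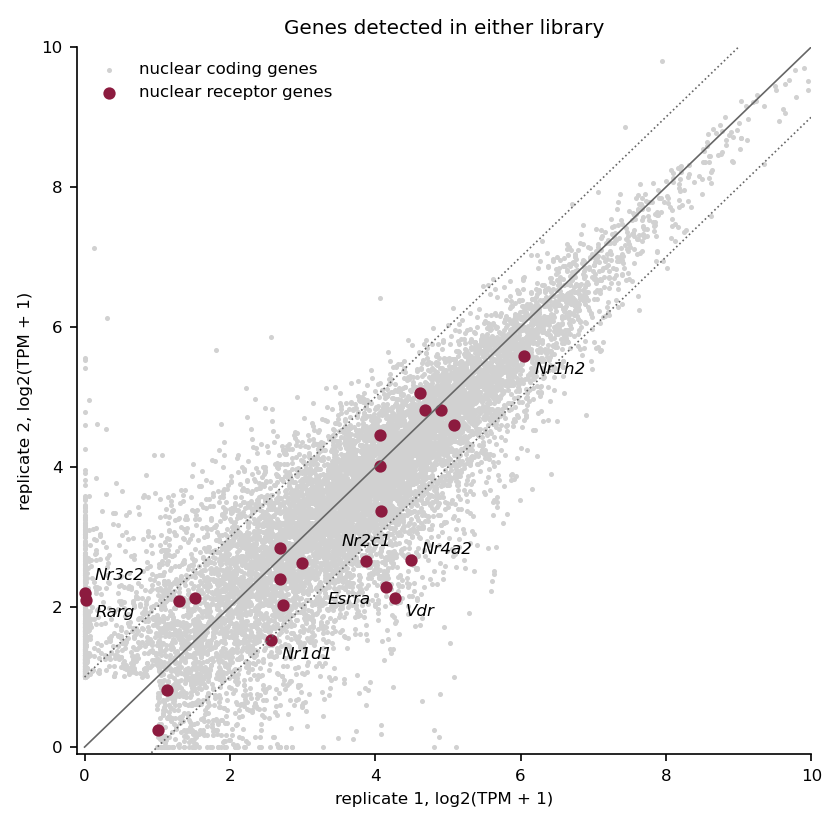
Level of each nuclear protein coding gene detected in either library (grey) and of the 23 nuclear receptor genes among them (red), as log2(TPM + 1) in replicate 1 (horizontal) and replicate 2 (vertical); the solid line marks equal levels and the dotted lines a 2-fold difference. The 7 members outside the dotted lines are named, as is Nr1h2, the highest member.

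Length correction bore on several of these differences. TPM divides each count by an effective length that depends on which transcripts the reads were given to. That length differed over 1.5-fold between the libraries for 7 of the 23 members (Vdr, Esrra, Rora, Nr6a1, Ppard, Rxrb and Rarg), or 30.4%, beside 15.8% of nuclear protein coding genes. It was 856 and 2652 nucleotides for Vdr, 672 and 1393 for Esrra, and 8072 and 3447 for Rora. In TMM-scaled CPM, with detection set on that scale, the genes over 2-fold higher in replicate 1 were again 5, but Nr1d1, Nr2c1, Nr4a2, Nr6a1 and Rora, and those over 2-fold higher in replicate 2 were 4, namely Hnf4a, Nr3c2, Rarg and Thrb. These were 5 and 4 of 24 members, beside 7.43% and 13.4% of nuclear protein coding genes. Nr1d1, Nr2c1, Nr4a2, Nr3c2 and Rarg were over 2-fold apart on both scales, although Nr1d1 fell short of 2-fold in posterior mean TPM (0.998 in log2) and in FPKM (0.96). Ppard, Rxrb and Nr4a3 changed direction between them. The gene lists were compared in TPM only, so their 2-fold counts were not checked on the CPM scale.

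**Figure D3:**
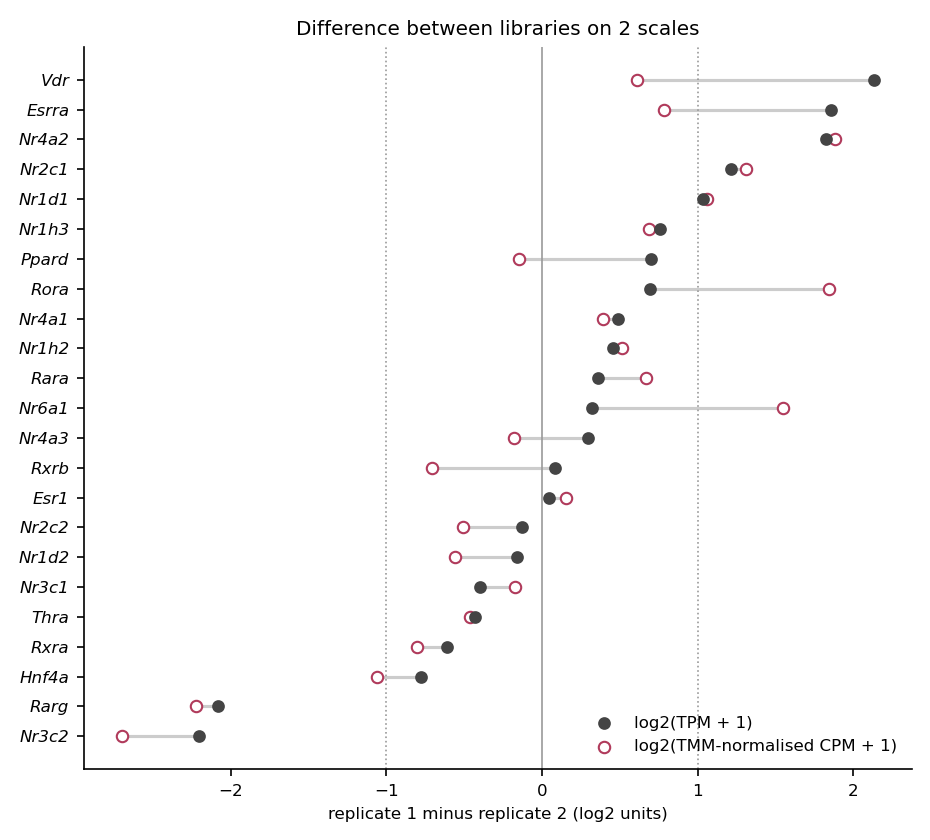
Difference between the libraries, replicate 1 minus replicate 2, for the 23 nuclear receptor genes detected in either library; filled circles are log2(TPM + 1), open circles log2(TMM-scaled CPM + 1), and dotted lines mark 2-fold. Vdr and Esrra lie outside the dotted line on the TPM scale only, and Rora, Nr6a1 and Hnf4a on the CPM scale only.

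Transcript assignments often differed between the libraries. Of the 18 members detected in both libraries that have more than 1 transcript, 7 had the same leading transcript in both, beside 51.4% of 7364 such coding genes. Fewer than 50% of the TPM lay on protein coding transcripts for 5 of 19 members in replicate 1 (Nr1d2, Rxrb, Esrra, Nr4a2 and Nr4a3), beside 22.4% of nuclear protein coding genes detected in both, and for 4 of 19 in replicate 2 (Rora, Esr1, Nr4a2 and Nr4a3), beside 18.7%. Those shares are near the background. Counted on coding transcripts alone, a choice made after seeing the data, 18 members were detected in both libraries, Nr4a3 being the member lost. The genes over 2-fold higher in replicate 1 were then Esr1, Nr1d1, Nr2c1, Rora and Vdr, beside 10.8% of nuclear protein coding genes, and those in replicate 2 were Nr3c2, Rarg and Rxrb, beside 14.9%. With 5 and 3 of 22 members, the share in replicate 2 was 13.6%, near that background. The call of Vdr rests on the coding fragment Vdr-204 described above, since its full-length Vdr-201 lay within 2-fold.

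**Figure D4:**
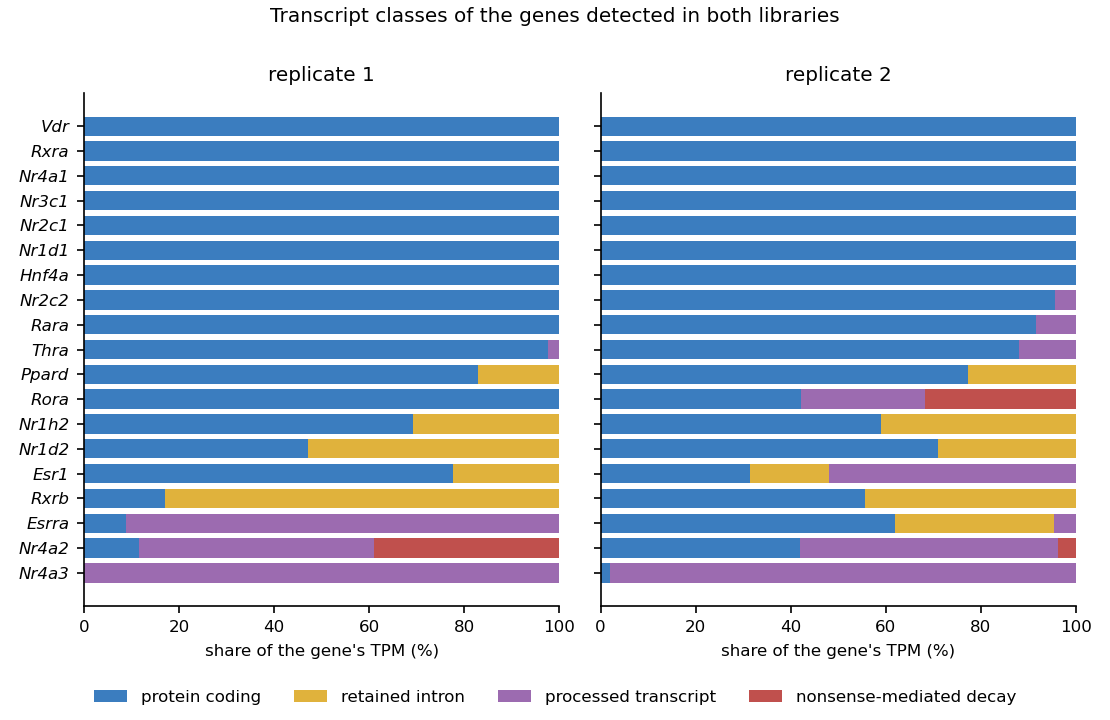
Share of each gene's TPM, in percent, on transcripts of each annotated class in replicate 1 (left) and replicate 2 (right), for the 19 nuclear receptor genes detected in both libraries. Nr1d1, Hnf4a, Rxra and Vdr, which also have non-coding transcripts, are wholly protein coding in both, Nr4a1, Nr3c1 and Nr2c1 have no other class listed, and Nr4a3 is almost wholly processed transcript. The protein coding class includes short coding fragments, such as those that carry much of Vdr.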

How the data were processed

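Total RNA of 2 libraries was quantified by the authors with RSEM against mm10 and GENCODE M4, per the deposited README files. No source used here names the aligner, tool versions or strand setting. The authors deposited expected counts, TPM and FPKM per gene and transcript, and the percent of each gene carried by each transcript. Gene symbols, positions and transcript classes came from GENCODE M21 on the same build, and promoter windows from RefSeq (GRCm38.p6). Symbols were found for 42462 of 43346 mouse gene identifiers.

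Levels and differences were computed from the deposited TPM with Python 3.11.15, and differences between libraries were taken after adding 1 TPM and log2 transformation, so those of low genes are understated. Expected counts served for CPM with edgeR 4.0.16 TMM factors, or with DESeq2 1.42.0 size factors as an alternative. They also gave the 95% counting intervals of the ratios, as exact binomial intervals on the split of counts between the libraries. TMM factors were held fixed in those intervals. The posterior SD of the gene count was 0 for every member in both libraries, so no member's gene count was shared with another gene. Rows without a mouse gene identifier held 0.0120% and 0.00719% of counts. The counting of calls was checked on simulated data. Genes changed in that simulation lay at higher mean TPM than the members called over 2-fold on gene TPM. Calls at those lower levels were thus not checked.

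The members and lists were chosen with earlier results of these data known. All members are accounted for, those detected in a library with both values, and the 4 highest genes of each list are named, except some list genes that are not reported here. Transcripts are named where at least 10% of a gene lay on more than 1 of them, with leading ones added. Alternatives covered thresholds, pseudocount, unit, scaling, filter and each library left out.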

Additional observations from a re-analysis of the deposited data

How the results depend on the processing

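The count of members detected in both libraries, 19, ranged from 16 (TPM of at least 2) to 21 (TPM rescaled over nuclear protein coding genes). With that rescaling 7 of 28 members, in place of 2 of 23, were over 2-fold higher in replicate 2, where the share of nuclear protein coding genes was 20.2% in place of 12.1%, and the median level was 36.8 TPM in place of 10.8. With a pseudocount of 5, 3 members were over 2-fold higher in replicate 1 and 0 in replicate 2 (4.84% and 2.76% of coding genes), as its construction damps low genes. A pseudocount of 0.1 gave 6 and 3 members (14.2% and 14.5% of coding genes). TMM-scaled CPM and those with DESeq2 size factors gave 4 over 2-fold higher in replicate 2 (13.4% and 13.6% of coding genes). The median difference, 0.32, was -0.11 with rescaled TPM, -0.16 with TMM scaling over the 24 members detected on that scale (0.15 over the 23 detected by TPM), -0.18 with DESeq2 size factors and 0.015 without a filter, so its sign depends on the scale. The median of nuclear protein coding genes was 0.086, and -0.12, -0.046, -0.062 and -0.029 under the same settings. Read alone, each library gave 21 detected members, with median levels of 5.35 to 15.7 TPM. The leading transcript was the same in both libraries for 8 of the 19 members, Nr4a1 with its single transcript included, and for 9 by posterior mean. No paired analysis was possible because the series has a single group. Depth limits the low members, where a few counts decide presence, and 2 libraries limit every spread.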

Other observations

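Several of the receptor genes are neighbours in the genome. On chromosome 11, Thra and Nr1d1 overlap by 1075 bp on opposite strands, and Rara begins 152.5 kb beyond Nr1d1. These neighbours stood at 23.6 and 32.2 TPM (Thra), 4.92 and 1.89 TPM (Nr1d1) and 6.94 and 5.19 TPM (Rara). The paralogous genes lie together on chromosome 14, with 841.1 kb between Rarb and Thrb and 166 kb between Thrb and Nr1d2. There Rarb and Thrb were below detection in both libraries, at 0 and 0.44 TPM and at 0 and 0.36 TPM, while Nr1d2 stood at 5.42 and 6.16 TPM. Nr5a1 and Nr6a1 are 8.8 kb apart on chromosome 2, Nr5a1 without a count and Nr6a1 with 239 and 25 counts.

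Promoter windows from 250 bases before to 50 after a RefSeq start were found for 42 of the members, 63 windows in all. The half-site AGGTCA, which many nuclear receptors bind, was searched on both strands and lay in 12 of the 63 (19.0%), beside 16.3% of all 32851 windows. The genes were Nr0b1, Nr1d2, Nr1h4, Nr5a2, Nr6a1, Pparg, Rara, Rarg, Rxra, Rxrg and Thrb. AAAGGTCA, the single site to which Nr4a proteins bind and which contains that half-site, was in the windows of Rxra and Rxrg, 3.17% of member windows beside 1.51% of all. Letters alone say nothing of binding.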
